A study of Mus musculus with 8 samples.

Results

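The EGF family ligands of mouse colon cancer organoids were followed as 10 genes, Areg, Ereg, Hbegf, Tgfa, Btc, Epgn, Egf, Nrg1, Nrg2 and Nrg4. They were chosen by name as EGF family or neuregulin ligands, with earlier results of these data known. All 10 were among the 32728 genes of the count table, and 9 of the 10 were among the 16719 genes that passed the filter on low counts. Ereg was the member that did not pass. The organoids, self-organising cultures of epithelial cells, carried CRISPR-made knockouts of Apc, p53 and Smad4 and came from C57BL/6 mice. Both organoid lines, CTO19 (labelled male) and apsMC706 (labelled female), carried all 3 knockouts, so no group had intact genes. The 4 groups were CTO19 in noEGF medium on day 7, CTO19 in EM on day 3, apsMC706 in noEGF medium on day 7 and apsMC706 in EM on day 3, with 2 libraries each. EM held B27, noggin (a blocker of BMP ligands), galunisertib (an inhibitor of the TGF-beta receptor) and EGF, and the noEGF medium was without EGF from the start of the culture. The labels call the lines biological replicates and do not say whether the 2 libraries of a group came from separate cultures, so p-values within a line measure the spread between these libraries, which may be technical.

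EGF family ligands are made as membrane-anchored precursors, and metalloproteases such as ADAM17 cut them loose to act on the same cell or on neighbours. Amphiregulin (Areg), TGF-alpha (Tgfa), epigen (Epgn) and EGF bind EGFR, heparin-binding EGF (Hbegf), betacellulin (Btc) and epiregulin (Ereg) bind EGFR and ERBB4, and the neuregulins bind ERBB3 or ERBB4. Receptor dimers signal through RAS and ERK, and several of the ligand genes are themselves induced by that signal. In intestinal organoid culture EGF is a standard component of the medium.

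Depth was similar throughout, with 35650262 to 38953838 counts per library, and 3 counts, the level that a count of 0 allows, corresponded to 0.0745 to 0.0868 CPM (counts scaled to a library of 1e+06). The mitochondrial genome gave 4.13% to 5.19% of counts in noEGF libraries and 2.94% to 3.68% in EM libraries. The media differed in days of culture as well and the lines in sex, and neither pair of factors can be told apart. The targeted genes kept counts in every library. Counts per library were 2130 to 3146 in CTO19 and 6543 to 7272 in apsMC706 for Apc, 1010 to 1197 and 479 to 620 for Trp53, and 384 to 767 and 1260 to 1509 for Smad4, with CTO19 lower for Apc and Smad4 and higher for Trp53, but a gene count does not show a CRISPR lesion, so the knockouts were not checked. The 10 intestinal epithelium markers summed to 3834 to 3920 CPM in CTO19 noEGF, 3041 to 3191 in CTO19 EM, 3652 to 3684 in apsMC706 noEGF and 3757 to 3802 in apsMC706 EM. These sums hide differences between the lines. Of the 9 tested, 7 were lower and 2 higher in CTO19 in noEGF (34.3% and 45.7% of all genes). In EM 6 were lower and 2 higher (33.8% and 37.5%). Lgals4 averaged 16.9 and 8.75 CPM in CTO19 noEGF and EM, against 186 and 399 in apsMC706. Krt19 averaged 973 and 540 CPM, against 548 and 464. Of 5 colon markers 2 were above the floor in CTO19, where Car1 had at most 1 count in a library, against 3 in apsMC706. The 10 squamous keratinocyte markers, led by the basal keratins Krt5 and Krt14, summed to 7738 to 8191 CPM in CTO19 noEGF and 9024 to 9209 in CTO19 EM, against 33.7 to 40.3 in apsMC706 noEGF and 12.8 to 13.1 in apsMC706 EM. In CTO19 the colon label thus went with few colon markers and abundant keratinocyte keratins. Summed markers of non-epithelial cell types were low in all libraries, at 1.88 to 11.5 CPM for fibroblasts, 1.24 to 8.07 for immune cells and 0.370 to 1.79 for endothelial cells. The 6 tuft cell markers summed to 10.3 to 11.9 CPM in CTO19 noEGF and 14.9 to 15.2 in CTO19 EM. In apsMC706 they summed to 20.6 to 20.8 in noEGF and 41.9 to 44.3 in EM. The sums of apsMC706 and of CTO19 EM rest largely on Dclk1 (19.3 CPM in apsMC706 noEGF, 41.9 in apsMC706 EM, 11.3 in CTO19 EM). In CTO19 noEGF Pou2f3 (5.50) stood above Dclk1 (3.29). Of the 4 tested, 2 were higher and 1 lower in CTO19 than in apsMC706 in each medium, beside the shares above. In noEGF against EM, 2 rose and 1 fell in CTO19 (34.7% and 33.3% of all genes). In apsMC706 1 rose and 2 fell (34.1% and 33.1%).

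Per kilobase of exon, the scale on which genes are compared here, the 10 ligands summed to 57.6 ± 2.84 CPM in CTO19 noEGF, 114.8 ± 2.78 in CTO19 EM, 26.9 ± 0.676 in apsMC706 noEGF and 18.7 ± 0.463 in apsMC706 EM (mean ± SD, n = 2). The summed level was thus lower in noEGF than in EM in CTO19 and higher in noEGF than in EM in apsMC706, with no overlap of libraries. Epgn was the most abundant ligand in CTO19, at 27.2 ± 3.40 CPM per kilobase in noEGF and 64.7 ± 1.85 in EM. It took 44.7% and 49.8% of the summed level in the noEGF libraries and 56.2% and 56.5% in the EM libraries. Btc was the most abundant in apsMC706, at 10.3 ± 0.144 CPM per kilobase in noEGF and 10.1 ± 0.320 in EM. It took 37.9% and 38.5% of the apsMC706 sum in noEGF and 53.6% and 54.2% in EM. With the longest transcript as the length of each gene, Hbegf (13.3 CPM per kilobase) lay above Btc (11.6) in apsMC706 noEGF, while the leading ligand of the other 3 groups was the same. With that length Hbegf (4.95 and 5.38) also lay above Tgfa (4.37 and 4.51) in the libraries of apsMC706 EM, and the libraries of Areg (20.2 and 21.3) and Tgfa (19.2 and 20.3) overlapped in CTO19 EM. The orders of levels, and the shares and sums, which were computed with the union of exons alone, thus depend on the length used.

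**Figure D1:**
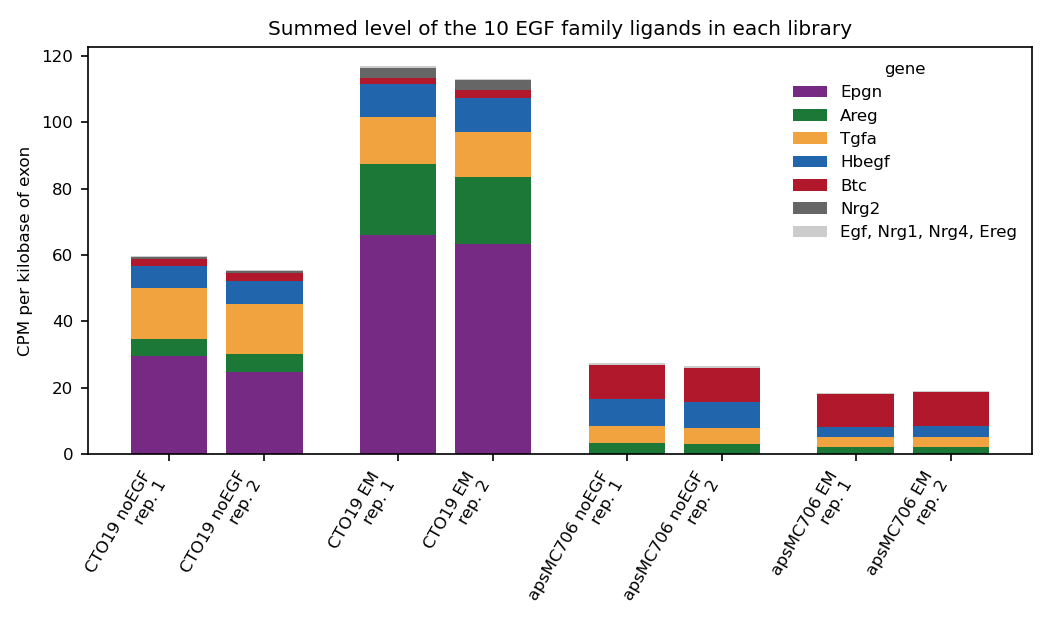
Summed level of the 10 ligands in each library, in CPM per kilobase of exon, as stacked bars with 1 color per gene (Egf, Nrg1, Nrg4 and Ereg are drawn together). Epgn fills the largest part of the CTO19 bars and Btc the largest part of the apsMC706 bars, and the group means are 57.6 and 114.8 in CTO19 noEGF and EM and 26.9 and 18.7 in apsMC706 noEGF and EM.

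By receptor, ligands that bind EGFR alone made up 81.6% and 84.4% of the summed level in CTO19 noEGF and 86.0% and 87.0% in CTO19 EM, against 30.5% and 32.0% in apsMC706 noEGF and 27.7% and 28.7% in apsMC706 EM. Ligands of both EGFR and ERBB4 made up 14.4% and 17.1% in CTO19 noEGF and 10.1% and 11.1% in CTO19 EM, against 67.3% and 68.3% in apsMC706 noEGF and 69.7% and 71.1% in apsMC706 EM. The ERBB3 and ERBB4 ligands Nrg1 and Nrg2 together took 0.946% and 1.06% in CTO19 noEGF and 2.69% and 2.75% in CTO19 EM. Shares are compositions of RNA, not of protein. Erbb4 had 0 counts in all 8 libraries, so the classes name receptors that a ligand can bind, not receptors seen here. The second place in the order of levels was held by Tgfa in CTO19 noEGF (15.2 ± 0.288 CPM per kilobase) and by Areg in CTO19 EM (20.8 ± 0.803). In apsMC706 it was Hbegf in noEGF (7.96 ± 0.117) and Tgfa in EM (3.09 ± 0.0693). The libraries of neighbours in the order overlapped in apsMC706 EM for Tgfa and Hbegf, for Nrg4 and Epgn and for Epgn and Egf, and in apsMC706 noEGF for Nrg1, Ereg and Nrg2, all near 0. In CTO19 no neighbours overlapped.

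**Figure D2:**
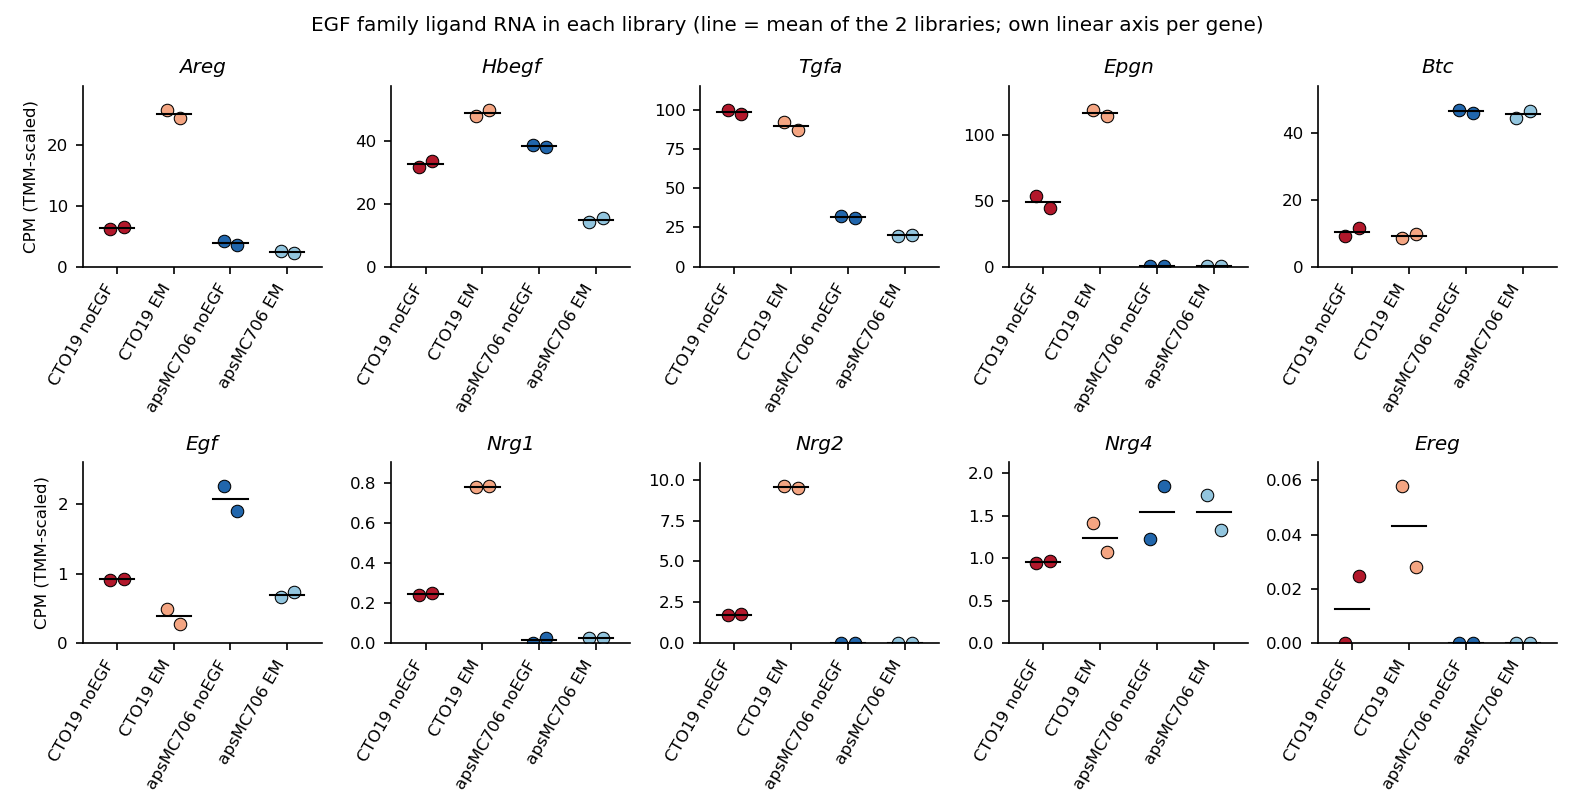
CPM of each ligand in each of the 8 libraries (points), with the mean of the 2 libraries of a group as a line and a linear axis of its own for each gene. Areg and Epgn stand highest in CTO19 EM, Btc is high in apsMC706 alone, and Hbegf is lower in noEGF than in EM in CTO19 and higher in noEGF than in EM in apsMC706.

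A group of 4 ligand genes lies side by side on chromosome 5 of GRCm38, within 375531 bases. In the order of the chromosome they are Epgn (ENSMUSG00000035020, 91027464 to 91035215, plus strand), Ereg (ENSMUSG00000029377, 91074622 to 91093646, plus strand), Areg (ENSMUSG00000029378, 91139599 to 91148432, plus strand) and Btc (ENSMUSG00000082361, 91357261 to 91402994, minus strand). Epgn averaged 49.2 CPM in CTO19 noEGF and 116.9 in CTO19 EM, against 0.241 in apsMC706 noEGF and 0.271 in apsMC706 EM, while Btc averaged 10.3 and 9.12 CPM in CTO19 noEGF and EM, against 46.6 and 45.7 in apsMC706 noEGF and EM. Ereg, which sits between Epgn and Areg, was under the floor in all groups. Across the 8 libraries Pearson's r of log2 CPM was 0.86 between Areg and Epgn, -0.83 between Areg and Btc and -0.99 between Btc and Epgn, as a description of libraries that fall into 2 lines.

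To show how the starts of these neighbours differ, the sequences upstream of Areg, Epgn and Btc are given from the RefSeq promoter table (GRCm38.p6), with a motif in capitals. They cover chr5:91139349-91139598 on the plus strand for Areg, chr5:91027267-91027463 on the plus strand for Epgn and chr5:91402995-91403244 on the minus strand for Btc, each ending at the base before the annotated gene.
Areg: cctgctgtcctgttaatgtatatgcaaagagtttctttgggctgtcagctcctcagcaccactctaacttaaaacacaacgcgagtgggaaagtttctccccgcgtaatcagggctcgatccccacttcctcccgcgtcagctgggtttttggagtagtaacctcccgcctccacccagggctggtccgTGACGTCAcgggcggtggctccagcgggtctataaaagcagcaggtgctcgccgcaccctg
Epgn: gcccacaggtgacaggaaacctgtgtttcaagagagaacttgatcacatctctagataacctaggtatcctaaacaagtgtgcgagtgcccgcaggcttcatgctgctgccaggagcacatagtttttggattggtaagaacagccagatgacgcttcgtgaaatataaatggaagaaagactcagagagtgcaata
Btc: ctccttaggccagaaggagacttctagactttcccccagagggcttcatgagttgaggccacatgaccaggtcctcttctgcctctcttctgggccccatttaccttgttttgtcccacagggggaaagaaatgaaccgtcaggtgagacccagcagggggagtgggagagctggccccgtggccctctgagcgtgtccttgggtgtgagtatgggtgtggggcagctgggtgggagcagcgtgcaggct

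The motifs searched on both strands, in windows from 250 bases before to 50 bases after a start, were TGANTCA (AP-1), TGACGTCA (CRE, the cAMP response element), CCGGAA (ETS core) and TTCAAAG with its complement CTTTGAA (TCF/LEF). Windows of 6 members were used, 7 in all, and no window of Ereg, Hbegf, Nrg1 or Nrg2 was searched. The Areg window held the CRE 61 bases before the start, a motif found in 1.79% of 32851 promoters of the same length. The Epgn window held TTCAAAG 42 bases after the start, outside the sequence printed (5.14% of promoters hold TTCAAAG or CTTTGAA), and the Btc window held none of the motifs. An Egf window held CCGGAA 45 bases before the start (14.9% of promoters) and the Nrg4 window CTTTGAA 204 bases before it. No window of the 6 members held TGANTCA (7.81% of promoters). A match describes letters in a window and does not show binding.

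Within apsMC706, where noEGF at day 7 was set against EM at day 3, 4 of the 9 ligands tested rose and 0 fell, with 34.1% of all genes tested higher and 33.1% lower. The median log2 fold change was 0.03 over the ligands and 0.0009 over all genes. The 9 include Nrg1 and Nrg2, which passed the filter through CTO19 and had at most 1 count in each apsMC706 library, too few for a call. The 4 that rose were Areg, Hbegf, Tgfa and Egf, all ligands of EGFR. In bulk RNA fewer cells of a type and less RNA per cell cannot be told apart. Summed secretory cell markers also stood higher in noEGF, at 976 to 1003 CPM in apsMC706 noEGF and 130 to 138 in apsMC706 EM. In CTO19 they summed to 257 to 320 in noEGF and 50.04 to 50.7 in EM. Of the 6 tested, 4 rose and 1 fell in apsMC706, and 4 rose and 0 fell in CTO19 (34.7% and 33.3% of all genes). Mmp7 averaged 790 CPM in apsMC706 noEGF and 48.2 in apsMC706 EM, and Fcgbp 186 in CTO19 noEGF and 27.9 in CTO19 EM. Atoh1 was lower in apsMC706 noEGF (0.202) than in apsMC706 EM (3.62). The sums thus rest largely on a few genes, and the part of these markers in the ligand responses was not tested.

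Hbegf (ENSMUSG00000024486, chromosome 18, 36504927 to 36515805, minus strand), whose precursor is also the diphtheria toxin receptor in humans, stood at 38.9 and 38.1 CPM in apsMC706 noEGF, against 14.3 and 15.6 CPM in apsMC706 EM. It was 2.58-fold higher in noEGF (log2 fold change 1.37, SE 0.0610, edgeR adjusted p = 5.78e-11). The noEGF libraries lay well above both EM libraries. Tgfa (ENSMUSG00000029999, chromosome 6, 86195223 to 86275719, plus strand), a potent EGFR ligand of epithelia, had 32.5 and 31.1 CPM in apsMC706 noEGF and 19.8 and 20.4 CPM in apsMC706 EM. It was 1.58-fold higher (log2 fold change 0.66, SE 0.0540, edgeR adjusted p = 4.18e-08), again with no overlap. Exons of Tgfa overlap those of Gm43917 on the other strand, and the library kit does not mark strand. Areg, a ligand of lower affinity that is a target of EGFR signalling itself, had 4.2002 and 3.59 CPM in apsMC706 noEGF and 2.57 and 2.23 CPM in apsMC706 EM. Its 1.62-fold rise passed the test (log2 fold change 0.70, SE 0.133, edgeR adjusted p = 0.000293).

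Egf itself (ENSMUSG00000028017, chromosome 3, 129677565 to 129755316, minus strand), the ligand that the noEGF medium lacked, was transcribed at a low level in all 4 groups. Its counts were 83 and 72 in apsMC706 noEGF, against 25 and 27 in apsMC706 EM, or 2.26 and 1.90 CPM against 0.661 and 0.735 CPM. The rise was 2.97-fold (log2 fold change 1.57, SE 0.244, edgeR adjusted p = 4.15e-05). In CTO19 the counts were 34 and 37 in noEGF, against 17 and 10 in EM. There the rise was 2.37-fold (log2 fold change 1.24, SE 0.317, edgeR adjusted p = 0.00289). Both lines thus moved the same way, and the difference between the responses did not pass the test (log2 difference -0.33, SE 0.422, edgeR adjusted p = 0.542). Exons of Egf overlap those of the antisense genes 6330410L21Rik, which had 0 to 2 counts per library, and Gm42697. The library kit does not mark strand, so reads from a gene and its antisense partner cannot be told apart.

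The remaining ligands of apsMC706 did not pass. Btc had 47.0 and 46.1 CPM in noEGF and 44.6 and 46.7 CPM in EM, so its libraries overlapped (log2 fold change 0.03, SE 0.0689, edgeR adjusted p = 0.743). Nrg4, an ERBB4 ligand, had 1.23 and 1.85 CPM in noEGF and 1.75 and 1.33 CPM in EM. Epgn had 7 and 11 counts in noEGF and 4 and 16 in EM, Nrg1 0 and 1 against 1 and 1, and Nrg2 0 and 0 against 1 and 1. Against a minimum fold of 1.5, the calls of Areg (edgeR adjusted p = 0.240) and Tgfa (0.0916) in apsMC706 were lost and those of Hbegf and Egf were not.

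Within CTO19, of the 9 ligands tested, 2 rose (Tgfa and Egf) and 5 fell (Areg, Hbegf, Epgn, Nrg1 and Nrg2), with 34.7% of all genes tested higher and 33.3% lower in noEGF. The median log2 fold change was -0.59 over the ligands and 0.02 over all genes. Nrg1, with 9 and 10 counts in CTO19 noEGF and 27 and 28 in CTO19 EM, passed the filter on low counts through CTO19 EM alone. Its call could thus only be a fall, and the 5 that fell and the median include it. The summed squamous markers were also lower in CTO19 noEGF than in CTO19 EM, as given above, although 6 of the 10 rose and 2 fell. Krt5 averaged 2226 CPM in CTO19 noEGF and 3792 in CTO19 EM, and Krt14 2525 and 3481. Krt1 averaged 796 CPM in CTO19 noEGF and 22.2 in CTO19 EM, and Sprr1a 406 and 46.4. The part of these markers in the falls of the ligands was not tested.

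Areg stood at 6.24 and 6.56 CPM in CTO19 noEGF, against 25.9 and 24.6 CPM in CTO19 EM. It was 3.94-fold lower (log2 fold change -1.98, SE 0.0900, edgeR adjusted p = 1.4e-10). The EM libraries of CTO19 stood far above all others, and its noEGF libraries lay nearer to those of apsMC706. Epgn had 53.6 and 44.9 CPM in CTO19 noEGF and 119.3 and 114.6 CPM in CTO19 EM. The most abundant ligand of this line was thus 2.38-fold lower without EGF (log2 fold change -1.25, SE 0.0991, edgeR adjusted p = 9.13e-06) and still first in the order of levels. Hbegf had 31.6 and 33.6 CPM in CTO19 noEGF and 48.1 and 50.04 CPM in CTO19 EM. Its 1.503-fold fall passed the test (log2 fold change -0.59, SE 0.0549, edgeR adjusted p = 2.43e-07), but not against a minimum fold of 1.5 (0.681).

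Of the 3 neuregulins detected in CTO19, Nrg1 and Nrg2 fell. Nrg2 (ENSMUSG00000060275, chromosome 18, 36017652 to 36197380, minus strand) had 63 and 71 counts in CTO19 noEGF and 332 and 338 in CTO19 EM, or 1.70 and 1.76 CPM against 9.61 and 9.50 CPM. It was 5.51-fold lower (log2 fold change -2.46, SE 0.141, edgeR adjusted p = 3.44e-09), the lowest fitted ratio among the ligands of this line. Nrg1 (ENSMUSG00000062991, chromosome 8, 31814551 to 32884029, minus strand) had 9 and 10 counts in CTO19 noEGF and 27 and 28 in CTO19 EM. Its 3.17-fold fall (log2 fold change -1.66, SE 0.358, edgeR adjusted p = 0.000820) rests on these few counts, and with the Wald test of DESeq2 the adjusted p was 0.0534. Nrg1 exons overlap those of Gm26578 on the other strand.

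Tgfa, the second ligand of CTO19 noEGF per kilobase, had 99.97 and 97.3 CPM in CTO19 noEGF and 91.8 and 87.1 CPM in CTO19 EM. The difference of 1.10-fold was small and passed the test (log2 fold change 0.14, SE 0.0446, edgeR adjusted p = 0.0115). Without CTO19 EM replicate 2 the adjusted p was 0.0672. Btc had 9.26 and 11.4 CPM in CTO19 noEGF and 8.57 and 9.66 CPM in CTO19 EM, with overlapping libraries (log2 fold change 0.18, SE 0.0981, edgeR adjusted p = 0.110). Without CTO19 noEGF replicate 1 its log2 fold change was 0.33 and it passed (edgeR adjusted p = 0.00430). Nrg4 had 0.942 and 0.969 CPM in CTO19 noEGF and 1.42 and 1.07 CPM in CTO19 EM, and its log2 fold change of -0.38 (SE 0.274) did not pass (edgeR adjusted p = 0.237).

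**Figure D3:**
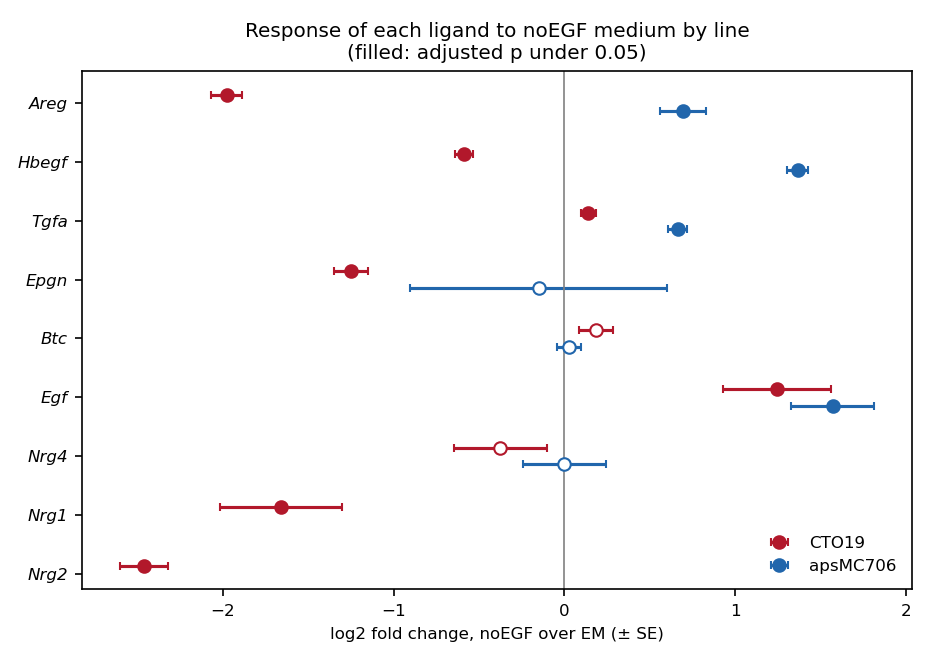
Log2 fold change of each ligand, noEGF over EM, in CTO19 (red) and apsMC706 (blue), with bars of 1 SE and filled points where the edgeR adjusted p was under 0.05. Areg and Hbegf lie on opposite sides of 0 in the lines, Egf is to the right in both, and Nrg1 and Nrg2 are drawn for CTO19 alone because apsMC706 held at most 1 count of either per library.

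How far the responses differed, as CTO19 minus apsMC706, was tested directly. Of 9 ligands 3 had a lower response in CTO19 (Areg, Hbegf and Tgfa) and 0 a higher one, with 25.6% of all genes tested lower and 30.4% higher. The median difference was -0.52 over the ligands and 0.06 over all genes. Nrg1 and Nrg2, with at most 1 count in each apsMC706 library, are among the 9. For Areg the difference was -2.67 on the log2 scale (SE 0.161, edgeR adjusted p = 4.69e-09), for Hbegf -1.95 (SE 0.0822, edgeR adjusted p = 1.56e-10) and for Tgfa -0.52 (SE 0.0701, edgeR adjusted p = 1.57e-05). Areg and Hbegf fell in CTO19 and rose in apsMC706, while Tgfa rose in both and by more in apsMC706. The Tgfa difference was lost in the test against a fold of 1.5, and the calls of Areg and Hbegf held in every alternative run. For Epgn the difference of -1.10 did not pass (SE 0.785, edgeR adjusted p = 0.276), with few counts in apsMC706. Without apsMC706 EM replicate 2 it was -2.41 and passed (0.0262), as it did with no filter on low counts (0.0361) and with DESeq2 (0.0392).

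Over both lines together, with a term for line, 2 of 9 ligands rose (Tgfa and Egf) and 3 fell (Epgn, Nrg1 and Nrg2), with 25.5% of all genes tested higher and 23.3% lower. The median log2 fold change was -0.18 over the ligands and 0.03 over all genes. Areg (log2 fold change -0.73, SE 0.537, edgeR adjusted p = 0.295) and Hbegf (0.38, SE 0.382, edgeR adjusted p = 0.443) did not pass this test, although each passed within both lines in opposite directions. Egf had the firmest rise (1.43, SE 0.202, edgeR adjusted p = 0.00125) and was higher in 4 of 4 noEGF libraries than in the EM libraries of the same line. The falls of Nrg2 (-2.48, edgeR adjusted p = 0.000112), Nrg1 (-1.59, 0.00489) and Epgn (-1.08, 0.0135) rest on CTO19, and apsMC706 held few counts of these genes. Nrg1 passed the filter on low counts through CTO19 EM alone, so that its call could only be a fall, and the 3 that fell include it.

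The rise of Tgfa over both lines (log2 fold change 0.40, SE 0.109, edgeR adjusted p = 0.0197) was lost without apsMC706 EM replicate 1 (0.0578), apsMC706 EM replicate 2 (0.0620) or apsMC706 noEGF replicate 2 (0.0513). The fall of Epgn was lost without CTO19 EM replicate 1 (0.0526), CTO19 noEGF replicate 1 (0.0558) or CTO19 noEGF replicate 2 (0.0715). Against a minimum fold of 1.5 the calls of Epgn (0.110) and Tgfa (1) over both lines were lost too. When libraries were summed per line and medium, so that the lines were the replicates and 1 residual degree of freedom was left, 0 ligands and 0 of 16719 genes passed in edgeR, with 3 ligands and 2809 genes at an unadjusted p under 0.05.

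Between the lines, 5 of 9 ligands were higher in CTO19 than in apsMC706 in noEGF (Areg, Tgfa, Epgn, Nrg1 and Nrg2) and 4 were lower (Hbegf, Btc, Egf and Nrg4), with 45.7% of all genes tested higher and 34.3% lower. In EM 6 were higher, the same 5 with Hbegf, and 2 lower (Btc and Egf), with 37.5% of all genes higher and 33.8% lower. The median log2 difference was 0.72 over the ligands and 0.13 over all genes in noEGF, and 2.15 over the ligands and 0.02 over all genes in EM. Nrg1 and Nrg2 had at most 1 count in each apsMC706 library and passed the filter on low counts through CTO19. They could thus come out only as higher in CTO19, and these counts and medians include them. The lines also differed in the summed keratinocyte and colon markers given above, and the part of these in the ligand differences was not tested.

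Epgn was the ligand with the widest gap that could be fitted from counts in all libraries. It was 201-fold higher in CTO19 than in apsMC706 in noEGF (log2 difference 7.65, SE 0.237, edgeR adjusted p = 9.69e-09) and 430-fold higher in EM (8.75, SE 0.211, edgeR adjusted p = 2.74e-09). The size of the EM gap depends on apsMC706 EM libraries with 4 and 16 counts, with a log2 difference of 8.05 without replicate 1 and 10.06 without replicate 2 of apsMC706 EM. Tgfa was 3.10-fold higher in CTO19 in noEGF (1.63, SE 0.0481, edgeR adjusted p = 1.82e-13) and 4.45-fold higher in EM (2.15, SE 0.0510, edgeR adjusted p = 1.86e-14). Areg was 1.64-fold higher in CTO19 in noEGF (0.72, SE 0.112, edgeR adjusted p = 3.08e-05) and 10.497-fold higher in EM (3.39, SE 0.106, edgeR adjusted p = 4.22e-13). The noEGF call of Areg was lost against a minimum fold of 1.5 (0.0937). The gap in Areg between the lines was thus narrow in noEGF and wide in EM.

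Hbegf changed side. In noEGF it was 1.18-fold lower in CTO19 than in apsMC706 (log2 difference -0.24, SE 0.0556, edgeR adjusted p = 0.00115), a call that was lost against a minimum fold of 1.5, and in EM it was 3.29-fold higher in CTO19 (1.72, SE 0.0602, edgeR adjusted p = 1.6e-12). Btc was lower in CTO19 in both media, 4.49-fold in noEGF (-2.17, SE 0.0808, edgeR adjusted p = 5.4e-12) and 5.003-fold in EM (-2.32, SE 0.0838, edgeR adjusted p = 4.69e-12). Among the ligands with the higher level in apsMC706, Btc was thus the one with the widest gap. Egf was lower in CTO19, by 1.18 on the log2 scale in noEGF (edgeR adjusted p = 0.000264) and by 0.85 in EM (0.0340). The EM call of Egf was lost without apsMC706 EM replicate 1 (0.0617), apsMC706 EM replicate 2 (0.120) or CTO19 EM replicate 2 (0.262) and with DESeq2 (0.105).

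Nrg1 had 19 counts in the 2 libraries of CTO19 noEGF and 1 in those of apsMC706 noEGF, a ratio of 18.3 (95% exact interval 2.91 to 760, counting error only). In EM it had 55 counts in CTO19 and 2 in apsMC706, a ratio of 29.2 (7.71 to 247). Nrg1 was therefore near absence in apsMC706 and scarce in CTO19. Nrg2 had 134 counts in CTO19 noEGF and 0 in apsMC706 noEGF, at least 21.5-fold higher against a floor of 3 counts per library. In EM it had 670 counts in CTO19 and 2 in apsMC706, a ratio of 356 (98.1 to 2945). Ereg had 1 count in CTO19 noEGF, 3 in CTO19 EM and 0 in apsMC706 in either medium, so that both lines lay under the floor and no fold is given. In human colorectal cancer epiregulin and amphiregulin are often measured together. Here Ereg was not detectable at this depth in libraries with 82 to 896 counts of Areg.

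Nrg4 (ENSMUSG00000032311, chromosome 9, 55220222 to 55326844, minus strand) was lower in CTO19 in noEGF (log2 difference -0.69, SE 0.261, edgeR adjusted p = 0.0254) and did not pass in EM (-0.31, SE 0.254, edgeR adjusted p = 0.285). The noEGF call was lost without apsMC706 noEGF replicate 2 (0.314), with DESeq2 (0.0676) and against a fold of 1.5 (0.307). Its exons overlap those of Fbxo22 on the other strand, which had 30.7 to 47.0 CPM against 0.942 to 1.85 CPM of Nrg4. With a kit that does not mark strand, some counts of Nrg4 may belong to Fbxo22, and its values are uncertain.

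The receptors that the ligands act on changed as well. Erbb4 had 0 counts in all 8 libraries, which allows up to 3 counts in each. Of the other 3 receptors all 3 rose over both lines in noEGF and 0 fell, with a median log2 fold change of 0.64, beside 25.5% of all genes higher and 23.3% lower. Egfr had 32.2 and 34.0 CPM in apsMC706 noEGF and 14.6 and 15.1 CPM in apsMC706 EM. In CTO19 it had 86.4 and 77.3 CPM in noEGF and 81.3 and 66.1 CPM in EM, with overlapping libraries. The response of Egfr was lower in CTO19 than in apsMC706 (log2 difference -1.01, SE 0.152, edgeR adjusted p = 0.000656). Areg, Hbegf, Tgfa and Egfr thus shared a lower response in CTO19 than in apsMC706.

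Erbb2, the co-receptor that binds no ligand, had 145.1 and 141.6 CPM in CTO19 noEGF and 85.9 and 89.9 CPM in CTO19 EM. In apsMC706 it had 64.6 and 67.0 CPM in noEGF and 64.8 and 60.6 CPM in EM, and its response was higher in CTO19 (log2 difference 0.64, SE 0.0657, edgeR adjusted p = 1.12e-06). Exons of Erbb2 overlap those of Mien1, which had 7.11 to 11.9 CPM. Erbb3, the receptor of the neuregulins, rose in both lines, by 1.22 in CTO19 (edgeR adjusted p = 8.37e-12) and by 1.23 in apsMC706 (edgeR adjusted p = 3.03e-12) on the log2 scale. The call of Egfr over both lines (log2 fold change 0.64, edgeR adjusted p = 0.0352) was lost without any of the 4 apsMC706 libraries (EM replicate 1, 0.101, EM replicate 2, 0.104, noEGF replicate 1, 0.0782, noEGF replicate 2, 0.0762) and without CTO19 EM replicate 2 (0.0653). That of Erbb2 (0.39, edgeR adjusted p = 0.0393) was lost without apsMC706 EM replicate 2 (0.0572) or CTO19 EM replicate 1 (0.114) or 2 (0.118), and its difference between the lines was lost against a fold of 1.5 (0.301). In CTO19 Egfr (log2 fold change 0.15, edgeR adjusted p = 0.196) passed without CTO19 EM replicate 1 (0.30, 0.000667).

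Genes that handle the ligands and their receptors moved in both directions. Of 20 genes of ligand shedding and trafficking, 5 rose and 3 fell over both lines (median log2 fold change 0.03), where 25.5% of all genes were higher and 23.3% lower. In CTO19 9 rose and 6 fell (34.7% and 33.3% of all genes), and in apsMC706 10 rose and 7 fell (34.1% and 33.1%). These counts lie near the shares over all genes or, in apsMC706, somewhat above them. Adam10, the main sheddase of EGF and betacellulin, was 1.34-fold higher over both lines (log2 fold change 0.43, edgeR adjusted p = 0.00444). Adam17, the main sheddase of amphiregulin, TGF-alpha and HB-EGF, was 1.19-fold lower (-0.25, edgeR adjusted p = 0.0284). Its libraries held 106 and 107 CPM in CTO19 noEGF and 114 and 112 CPM in CTO19 EM, and 63.1 and 63.6 CPM in apsMC706 noEGF and 86.5 and 83.5 CPM in apsMC706 EM.

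Other members of that list that passed over both lines were Timp3, an inhibitor of ADAM17, with a log2 fold change of 2.10 (edgeR adjusted p = 0.00230), the protease Bace2 (0.88, 0.00392), Nkd2, which escorts TGF-alpha to the membrane (3.41, 0.00433), the protease Bace1 (0.75, 0.00990), and, among those that fell, the cargo receptors Cnih1 (-0.45, 0.000404) and Cnih4 (-0.18, 0.0257). Bace1 lay outside the rule for named genes and is given to complete the count. The Nkd2 value rests on CTO19, with 106 and 88 counts in CTO19 noEGF and 5 and 11 in CTO19 EM, and 0 counts in every apsMC706 library. Timp3 had 21 and 28 counts in apsMC706 noEGF and 51 and 54 in CTO19 noEGF. In EM it had 6 and 12 counts in apsMC706 and 8 and 6 in CTO19. Nkd2 and Timp3 thus passed the filter on low counts through noEGF libraries. They could come out only as higher in noEGF, and the counts of genes that rose over both lines include them. Rhbdf2 and Rhbdf1, the iRhoms that bring ADAM17 to the surface, rose in apsMC706 by 1.09 (edgeR adjusted p = 1.03e-09) and 0.75 (2.2e-09). In CTO19 Bace2 (1.28, edgeR adjusted p = 1.28e-09) and Tspan15, a partner of ADAM10 (0.66, 4.6e-07), rose, and the sheddase Adam12 fell (-3.53, 7.57e-08). Of 12 genes of receptor attenuation 5 rose and 2 fell over both lines, 7 rose and 2 fell in CTO19, and 6 rose and 2 fell in apsMC706, beside the same shares over all genes, so that counts of this size in a list of 12 are read as no result about the list. They include the ubiquitin ligase Cblb (0.70, edgeR adjusted p = 0.000428), Lrig2 (0.67, 0.000833), Lrig3 (1.01, 0.00541) and the EGFR inhibitor Errfi1 (0.63, 0.00125), which rose, and Cbl (-0.31, 0.0208) and its partner Sh3kbp1 (-0.57, 0.0368), which fell.

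The list of 22 genes induced by ERK, the kinase downstream of the receptors, was set beside the ligands. In CTO19 5 rose and 14 fell (median log2 fold change -0.60), with 34.7% of all genes higher and 33.3% lower, and in apsMC706 16 rose and 3 fell (median 0.76), with 34.1% higher and 33.1% lower. The difference of the responses was lower in CTO19 for 20 of 22 genes and higher for 0, with a median of -1.25, beside 25.6% of all genes lower and 30.4% higher. Over both lines 5 rose and 4 fell. The phosphatase Dusp6, a feedback inhibitor of ERK, had 32.4 and 30.7 CPM in CTO19 noEGF and 81.7 and 87.7 CPM in CTO19 EM, and 217 and 213 CPM in apsMC706 noEGF and 144 and 144 CPM in apsMC706 EM. Its fall in CTO19 was 2.69-fold (log2 fold change -1.42, SE 0.0483, edgeR adjusted p = 8.33e-12).

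The ETS factor Etv4 fell in CTO19 by 1.77 on the log2 scale (edgeR adjusted p = 1.24e-12) and in apsMC706 by 0.18 (edgeR adjusted p = 0.00245). The immediate early factor Egr1 rose in both, by 0.55 in CTO19 (edgeR adjusted p = 3.45e-06) and by 1.89 in apsMC706 (edgeR adjusted p = 4.3e-12), and Ier3 rose in apsMC706 by 1.29 (edgeR adjusted p = 7e-12). The feedback inhibitor Spry1 rose in CTO19 by 1.04 (edgeR adjusted p = 1.35e-08) and over both lines by 0.98 (edgeR adjusted p = 8.33e-05). Further genes that passed over both lines were Dusp4 (0.68, edgeR adjusted p = 0.00678), Egr1 (1.22, 0.00769) and Ier2 (0.54, 0.0208), which rose, and Spred2 (-0.57, 0.0103), Fosl1 (-1.33, 0.0146), Etv4 (-0.96, 0.0354) and Etv5 (-0.89, 0.0483), which fell. Whether the ligand and ERK-induced genes depend on each other was not tested.

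**Figure D4:**
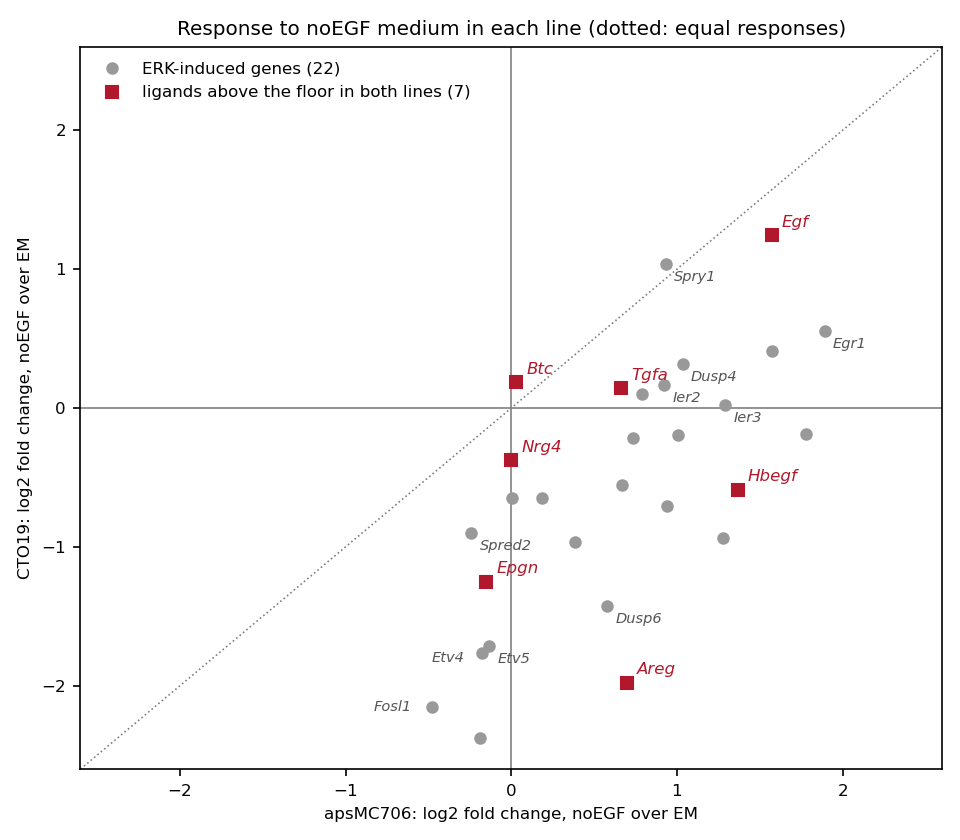
Log2 fold change, noEGF over EM, in CTO19 (vertical axis) against apsMC706 (horizontal axis) for the 7 ligands above the floor in both lines (red squares) and the 22 ERK-induced genes (grey circles), with the dotted line of equal responses. Areg and Hbegf lie at the lower right, at -1.98 and -0.59 in CTO19 against 0.70 and 1.37 in apsMC706, among ERK-induced genes such as Dusp6.

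The genes whose log2 CPM followed each ligand most closely were ranked by Pearson's r over the 8 libraries. The candidates for each ligand were the 9212 or 9213 genes whose log2 CPM averaged 3 or more. The libraries fall into 2 lines and 4 groups, so that r is a description of these libraries. For Areg these were Itgb4, Mapk6 and Zyx (r up to 0.997), for Hbegf Tmcc3, Sdc1 and Plk2 (0.991), and for Tgfa Dsg3, Hdac7 and Dnajb4 (0.999). Dsg3, a desmosomal cadherin, is also on the list of squamous keratinocyte markers. For Btc they were Otop1, Tnfrsf19 and Slc30a2 (0.999), for Epgn Acsbg1, Rab12 and Sertad4 (0.997), and for Egf Ercc6, Cblb and Airn (0.993). For Nrg1 they were Lgals1, Traf3 and Zfp36l2 (0.995), for Nrg2 Ehd1, Capn1 and Phlda3 (0.998), and for Nrg4 Tmem199, Faap20 and Rasa2, where the highest r was 0.902. Among the ligands themselves the closest pair was Nrg1 and Nrg2 (r = 0.99).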

How the data were processed

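Poly(A)-selected RNA of 8 organoid libraries was sequenced, and per the labels the libraries had 8 cycles of amplification with a kit whose protocol does not mark strand. Reads were aligned with STAR 2.7.0a to mm10, per the submitters' processing notes, and what program counted them, with which strand setting, is not given in the sources used here. Deposited values are raw counts per Ensembl gene, whole numbers made by the authors with no normalization. Of 32728 genes 32680 were found in GENCODE M21 (GRCm38, the build of mm10), which gave names, positions and exon lengths, 48 were not found and 7747 had no count.

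Counts were fitted in R 4.3.3 with edgeR 4.0.16 (filterByExpr on the 4 groups, which kept 16719 genes and 99.97% of counts, TMM factors, robust quasi-likelihood F-tests, two-sided, Benjamini-Hochberg adjustment over all genes tested, threshold 0.05). The comparison over both lines had a medium term and a line term (biological coefficient of variation 16.9%, 5 residual degrees of freedom). The other 5 comparisons used the 4 group means (4.27%, 4 degrees of freedom). CPM are scaled by TMM, and CPM per kilobase use the union of exons. SE belongs to the log2 fold change. Intervals and floors cover counting error only, since reads without molecular identifiers are not independent molecules. Replicates of a group differed by more than counting noise (chi-square per gene 3.38 to 10.5), so that none was counted as a copy.

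Genes named are all members, the receptors with Errfi1, the targeted genes, the members of smallest p per pathway list and direction, and the 3 genes most alike each member. The members and lists were chosen with earlier results of these data known. Alternatives were DESeq2 size factors, no filter, a filter of 1 CPM in 4 libraries, the Wald test of DESeq2 1.42.0, limma-voom (limma 3.58.1), a replicate block, a test against a fold of 1.5, each library left out, summed libraries, and the longest transcript as length. The models were tested on simulated data with planted changes that were alike in both lines and the same spread for every gene. No difference between the lines or between their responses was planted, so recovery of such differences was not tested.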

Additional observations from a re-analysis of the deposited data

Results flagged for a closer look

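Responses to noEGF that differed between CTO19 and apsMC706 in a direct test (CTO19 minus apsMC706, log2 scale, edgeR) were those of 3 ligands and 2 receptors. The values were -2.67 for Areg (SE 0.161, adjusted p = 4.69e-09), -1.95 for Hbegf (SE 0.0822, adjusted p = 1.56e-10) and -0.52 for Tgfa (SE 0.0701, adjusted p = 1.57e-05). For the receptors they were -1.01 for Egfr (SE 0.152, adjusted p = 0.000656) and 0.64 for Erbb2 (SE 0.0657, adjusted p = 1.12e-06). Areg and Hbegf fell in CTO19 and rose in apsMC706. Groups of 2 libraries were too small to look for single libraries that stand apart.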

How the results depend on the processing

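Against a minimum fold of 1.5, 3 ligands and 2221 genes passed over both lines, 2 ligands and 4331 genes in apsMC706, 3641 genes in CTO19, 3194 for the difference of the responses, and 7293 and 5537 between the lines in noEGF and EM. With the filter of 1 CPM in 4 libraries, 3 ligands passed over both lines, since Egf and Nrg1 were no longer tested. With summed libraries 0 ligands and 0 genes passed in edgeR (lowest adjusted p 0.0846). The other 171 counts of calls, those without 1 library included, stayed within 1.5 times. Of the single ligand values, 755 kept call and direction, 30 lost the call, 4 gained it and 18 changed sign with no call. Levels per kilobase under another length or scaling moved by at least 1 SD in 30 cases and by less in 50. The cause of these changes was not tested.

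In apsMC706, where the Nrg4 log2 fold change was near 0, it was positive with DESeq2 size factors (0.0572), no filter (0.0662), the stricter filter (0.121), the DESeq2 Wald test (0.0568) and the replicate block (0.00099), and ranged from -0.34 to 0.254 without single libraries. Epgn in apsMC706 was 0.120 with limma-voom and ranged from -0.85 to 1.16 without single libraries, and Btc ranged from -0.0164 to 0.116. For the difference of the responses, Nrg2 was -0.0718 with the DESeq2 Wald test and -0.87 with limma-voom, and without single libraries Btc ranged from -0.0846 to 0.253, Egf from -0.67 to 0.126, Nrg1 from -1.64 to 1.502 and Erbb3 from -0.127 to 0.0122. Errfi1 was -0.00811 with DESeq2 size factors, -0.0444 with no filter, -0.0491 with the stricter filter and -0.00876 with the DESeq2 Wald test. Without single libraries it ranged from -0.251, which passed in edgeR without CTO19 noEGF replicate 2 (adjusted p = 0.00536), to 0.146.

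Replicate numbers did not pair libraries (correlations of replicate differences -0.00825 to 0.0485). With the replicate block 5 ligands and 6988 genes passed over both lines, against 8157 genes without it, and Egfr (edgeR adjusted p = 0.0584) and Erbb2 (0.0679) did not. Ereg, Nrg1 and, in apsMC706, Nrg2 and Epgn are limited by counts near the floor.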
